A study of Mus musculus with 30 samples.

Results

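The guanylate-binding proteins (GBP) and the immunity-related GTPases (IRG) are GTP-hydrolysing proteins that interferons induce and that gather on membranes around intracellular pathogens. The genes described here are the 10 genes Gbp2, Gbp3, Gbp5, Gbp7, Igtp, Irgm1, Irgm2, Iigp1, Tgtp1 and Tgtp2, taken by symbol from the GENCODE M21 annotation of the mouse genome. A row was found for 9 of the 10 genes among the 29861 genes of the table, and Gbp5 was not analysed here. All 9 passed the filter on low values, at least 1 TPM (transcript abundance scaled for transcript length and for the library's total) in 3 libraries, which 13644 genes passed.

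Transcript abundance was measured by RNA sequencing of ribosome-depleted total RNA from CCG-HTA-1, a primary tail fibroblast line from UMHet3 mice, a genetically mixed stock, at passage 4. Cultures were harvested 48 hours after 1 of 8 small molecules or the solvent DMSO was added. The 6 DMSO libraries served as controls, and each of the compounds had 3 libraries, 30 in all. The series concerns routes to cellular stress resistance that do or do not depend on the transcription factor NRF2. Antimycin A, which inhibits complex III of the respiratory chain, and Dihydrorotenone, which inhibits its complex I, formed separate groups. The others were Diphenyleneiodonium Cl, which inhibits flavin-containing enzymes, Clofilium tosylate, which blocks potassium channels, Cardamonin, a chalcone from plants, Podofilox, which stops tubulin from polymerising, and the compounds listed as BerberineA and AEG 3482. All cultures were kept at ambient oxygen in DMEM rich in glucose and free of pyruvate, no genotype or further agent set the groups apart, and doses were not analysed here. The mice were 5 to 8 weeks old when cells were collected, except that the label of Dihydrorotenone replicate 1 gives 8 to 11 weeks. All libraries came from this single line, and nothing says that replicates were separate cultures, so the tests measure the spread between these libraries, which may be technical. Library numbers ran without a gap through each group, so an effect of processing order and an effect of the compound cannot be told apart.

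In the mouse, GBP and IRG genes are among the genes most strongly induced by interferon gamma, and type I interferons induce them too. Interferon gamma acts through a promoter motif called GAS, and type I interferons act through a complex with STAT2 and IRF9 that binds the interferon-stimulated response element, ISRE. The IRG family divides by role: Igtp, Irgm1 and Irgm2 encode regulatory proteins that sit on the cell's own membranes and hold the effector proteins inactive, whereas Iigp1, Tgtp1 and Tgtp2 encode effectors that load onto the vacuole of parasites such as Toxoplasma and break it. GBP proteins coat the same vacuoles and bacteria in the cytosol and help to open them.

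All positions are whole protein-coding genes in GRCm38. The GBP genes lie in 1 cluster: Gbp2 (ENSMUSG00000028270) at chr3:142620602-142638008, plus strand, Gbp3 (ENSMUSG00000028268) at chr3:142560026-142573209, plus strand, and Gbp7 (ENSMUSG00000040253) at chr3:142530342-142550149, plus strand. Among the regulatory IRG genes, Irgm1 (ENSMUSG00000046879) is at chr11:48861968-48871683, minus strand, Igtp (ENSMUSG00000078853) at chr11:58199556-58207591, plus strand and Irgm2 (ENSMUSG00000069874) at chr11:58199618-58222782, plus strand. Igtp and Irgm2 overlap over 7974 bases on the same strand, and 15.9% of the 31-base words in Igtp transcripts also occur in Irgm2 transcripts. Of the effector IRG genes, Tgtp1 (ENSMUSG00000078922) is at chr11:48985327-48994172, minus strand and Tgtp2 (ENSMUSG00000078921) at chr11:49057194-49064206, minus strand, and Iigp1 lies apart on another chromosome. Tgtp1 and Tgtp2 are near-identical copies: 83.2% of the 31-base words of Tgtp1 also occur in Tgtp2, so the division of reads between them is uncertain and their sum is also given. Tgtp1 also overlaps Gm12185 on its strand, and both Tgtp genes overlap Olfr56 on the opposite strand.

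The promoters of the genes were searched for letters that match both motifs on both strands, in the 250 bases before each RefSeq start (GRCm38.p6). The genes were chosen as interferon-inducible, so matches were likely whatever the libraries showed. The ISRE core was searched as GAAANNGAAA and GAS as TTCNNNGAA, which reads the same on both strands. RefSeq windows of 8 of the 9 genes were searched, and the promoter of Iigp1 was not searched. All 8 held an ISRE core match in a window, against 2.98% of 32851 windows of the same length; the 8 genes have 9 windows, and the second window of Gbp3 held none. A GAS match was found in 5 of the 8 (Gbp7, Igtp, Irgm2, Tgtp1 and Tgtp2), against 7.02% of windows. In 4 genes, Igtp, Irgm2, Tgtp1 and Tgtp2, the GAS match was followed after 2 bases by the ISRE core match. Only 5 of the 32851 windows had this arrangement, and the fifth belongs to Gm12185, which overlaps Tgtp1. The bases around the matches were much alike in Igtp and Irgm2, and in Tgtp1 and Tgtp2, so the windows of these 4 genes are not separate occurrences. These windows are shown first, because this arrangement was rare among promoters; the GAS and ISRE matches are in capitals, and each is written 5′ to 3′ on the strand of its gene.
Igtp, chr11:58199456-58199555, plus strand: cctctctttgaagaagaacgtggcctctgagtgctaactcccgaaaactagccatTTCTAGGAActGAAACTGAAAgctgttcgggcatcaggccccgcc
Irgm2, chr11:58214868-58214967, plus strand: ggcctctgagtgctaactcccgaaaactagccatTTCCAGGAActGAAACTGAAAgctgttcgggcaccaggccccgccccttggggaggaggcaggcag
Tgtp1, chr11:48992269-48992368, minus strand: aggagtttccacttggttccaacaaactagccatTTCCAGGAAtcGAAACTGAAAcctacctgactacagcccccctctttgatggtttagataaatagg
Tgtp2, chr11:49064228-49064327, minus strand: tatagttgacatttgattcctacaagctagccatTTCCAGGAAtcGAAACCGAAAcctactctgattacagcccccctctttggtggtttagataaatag

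The ISRE core match began 34 bases before the RefSeq start in Igtp, 64 in Irgm2, 77 in Tgtp1 and 70 in Tgtp2. The GBP promoters had another layout. Gbp7 held 2 GAS matches upstream of its ISRE core match, with 44 and 25 bases between, and Gbp3 held 2 overlapping ISRE core matches, 45 and 39 bases before the start, and no GAS match. Both are shown for the contrast with the IRG windows, with the matches in capitals.
Gbp3, chr3:142559926-142560025, plus strand: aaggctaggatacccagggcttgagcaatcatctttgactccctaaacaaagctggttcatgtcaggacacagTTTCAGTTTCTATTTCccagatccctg
Gbp7, chr3:142530230-142530335, plus strand: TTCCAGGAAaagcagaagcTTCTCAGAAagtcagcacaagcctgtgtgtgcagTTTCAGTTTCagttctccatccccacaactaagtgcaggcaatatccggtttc

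Gbp2 held 1 ISRE core match and Irgm1 held 2 overlapping ones, both without a GAS match; these lie in annotated exons and are not shown. A match of letters is a description of the sequence and shows no binding.

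Across libraries the table was even: 12229 to 12700 genes reached 1 TPM, and the listed TPM summed to 92.7% to 93.7% of the TPM of a whole library. No pair of libraries held identical values. The depth of sequencing is unknown, since TPM does not carry it. All 10 fibroblast markers (such as Col1a1, Pdgfra and Vim) were above 10 TPM in every library. Of 12 macrophage and other leukocyte markers, 7 reached 1 TPM in some library, led by Lyz2 at 35.6 to 180 TPM, while the pan-leukocyte gene Ptprc stayed at or below 0.876 TPM, the T cell gene Cd3e below 0.1 TPM, and the natural killer cell gene Ncr1 was listed at 0 throughout. The summed level of the 12 was 166 to 227 TPM in DMSO and lower with every compound, between 60.2 and 139 TPM. Single markers did not all fall, as given below. DMSO replicate 6 was the lowest of the 6 DMSO libraries for all 9 genes, and results are also given without it.

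Most of the 9 GTPase genes rose with 5 compounds and fell with 3. Their summed level was 181 to 292 TPM in the DMSO libraries (median 277). Its median was 652 TPM with Antimycin A, 599 with Diphenyleneiodonium Cl, 474 with BerberineA, 395 with Clofilium tosylate and 365 with Dihydrorotenone. It was 109 TPM with Podofilox, 75.3 with AEG 3482 and 47.4 with Cardamonin. The treated libraries of each group lay wholly above or wholly below the DMSO range.

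Each compound was compared with DMSO with limma on log2(TPM + 1) over the 13644 genes, with Benjamini-Hochberg adjustment and a threshold of 0.05. On this scale fold changes of genes at low TPM are understated. All 9 genes rose with Antimycin A, where 37.3% of the tested genes passed in either direction and 2980 of 13644 were higher. All 9 also rose with Diphenyleneiodonium Cl, where 25.7% passed (1906 higher), and with BerberineA, where 21.7% passed (1717 higher). With Clofilium tosylate 8 of 9 rose, beside 23.4% of the tested genes that passed (1485 higher), and Tgtp1 did not pass. With Dihydrorotenone 7 of 9 rose, beside 14.4% that passed (676 higher), and Gbp7 and Irgm2 did not pass. All 9 fell with Cardamonin, where 70.3% of the tested genes passed and 4503 were lower. With AEG 3482 8 of 9 fell, all but Igtp, beside 68.1% that passed (3653 lower). With Podofilox 8 of 9 fell, all but Tgtp1, beside 46.2% that passed (2725 lower). The comparisons share the same DMSO libraries, so they are not independent of each other. In bulk RNA, fewer cells that express a gene and less of its RNA per cell cannot be told apart.

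The groups were also compared by overlap. All 3 treated libraries lay above all 6 DMSO libraries for 9 of 9 genes with Antimycin A (18.0% of all tested genes), Diphenyleneiodonium Cl (13.3%) and BerberineA (10.5%), for 7 with Clofilium tosylate (9.56%) and for 6 with Dihydrorotenone (4.99%). They lay below all 6 for 9 of 9 genes with Cardamonin (28.7%) and for 8 with AEG 3482 (22.8%) and Podofilox (16.7%). The genes that overlapped DMSO were Irgm2 and Tgtp1 with Clofilium tosylate, Gbp7, Irgm2 and Tgtp2 with Dihydrorotenone, Igtp with AEG 3482 and Tgtp1 with Podofilox.

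The median log2 change of the 9 genes was 1.37 with Antimycin A (median of all tested genes 0.03), 1.18 with Diphenyleneiodonium Cl (0.02) and 0.85 with BerberineA (0.02). It was 0.53 with Clofilium tosylate (where the median of all tested genes was within 0.01 of 0) and 0.44 with Dihydrorotenone (-0.03). It was -2.33 with Cardamonin (0.03), -1.44 with AEG 3482 (0.10) and -1.22 with Podofilox (0.04). Without DMSO replicate 6 the medians were 1.28, 1.09, 0.76, 0.43, 0.36, -2.46, -1.56 and -1.34 in the same order of compounds. The Dihydrorotenone result rests most on single libraries: without its replicate 1, the library with the other age label, 4 genes passed in place of 7, and with only Dihydrorotenone and DMSO in the fit 2 passed. Of all the genes called with Dihydrorotenone 34.4% were higher as deposited and 53.7% with libraries scaled by median ratios (47.2% with quantile normalization), and 7 of the 9 GTPase genes were higher under all 3. With Clofilium tosylate 5 genes in place of 8 passed when only the compared groups were fitted. The leukocyte marker sum was lower than DMSO in compounds that raised the GTPase genes and in those that lowered them (60.2 to 74.8 TPM with Antimycin A and 116 to 139 TPM with Cardamonin). Among these markers, Lyz2 and Adgre1 passed as lower with every compound. Cd68 passed as higher with Cardamonin (log2 1.26, limma adjusted p = 1.16e-11) and BerberineA (log2 0.37, limma adjusted p = 0.00681). Aif1 passed with AEG 3482 alone, as lower (log2 -0.48, limma adjusted p = 0.00873). The fibroblast marker sum was 11949 to 13543 TPM in DMSO, 9036 to 9616 with Antimycin A, 4800 to 5967 with Cardamonin and 13057 to 14424 with AEG 3482. The sum of 6 endothelial markers, of which Tek alone reached 1 TPM and Cdh5 stayed at or below 0.03 TPM, was 5.51 to 8.94 TPM in DMSO, 1.27 to 1.31 with Cardamonin, 1.65 to 1.92 with AEG 3482 and 6.10 to 6.77 with Podofilox. The part of these markers in the results was not tested.

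**Figure D1:**
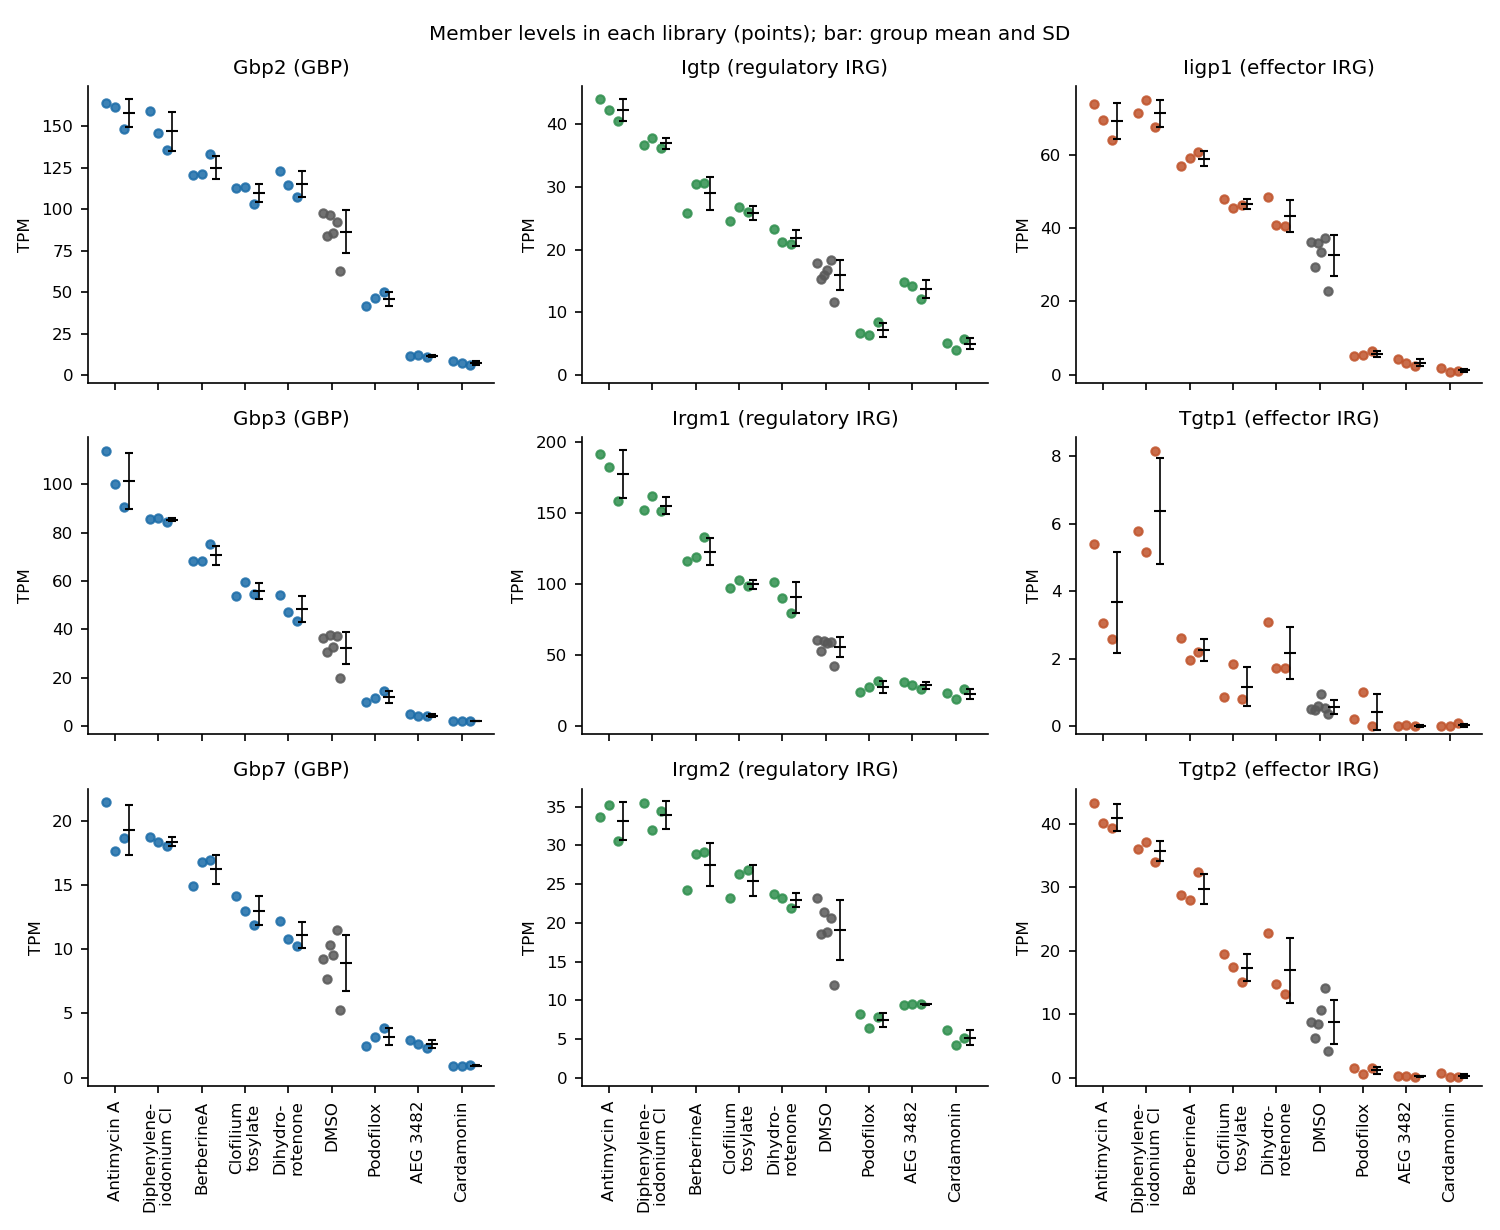
Level of each of the 9 GTPase genes in TPM (vertical axis, linear, its own scale in each panel) in the 30 libraries, with the 9 groups on the horizontal axis; points are libraries and bars are the group mean with its SD (n = 3, DMSO n = 6). Antimycin A, Diphenyleneiodonium Cl and BerberineA lie above the DMSO points in every panel and Cardamonin lies below them in every panel, whereas Igtp with AEG 3482 (12.1 to 14.8 TPM) falls within the DMSO range of 11.6 to 18.4 TPM.

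Gbp2, which encodes a GBP that targets the vacuole of Toxoplasma and cytosolic bacteria, was the most abundant GBP. Its DMSO libraries ran from 62.7 to 97.5 TPM with a median of 88.9. It stood at 164, 162 and 148 TPM with Antimycin A, 159, 146 and 136 with Diphenyleneiodonium Cl, 121, 121 and 134 with BerberineA, 113, 113 and 103 with Clofilium tosylate and 123, 115 and 108 with Dihydrorotenone. All 15 of these libraries were above all 6 DMSO libraries. The other libraries were low: 41.6, 46.4 and 49.96 TPM with Podofilox, 11.7, 12.2 and 10.6 with AEG 3482 and 8.28, 6.96 and 5.91 with Cardamonin, with no overlap with DMSO. The mean went from 86.4 ± 12.9 TPM (SD, n = 6) to 158 ± 8.36 TPM (SD, n = 3) with Antimycin A, 1.83-fold higher, a log2 change of 0.88 ± 0.10 (SE, limma adjusted p = 1.91e-07). With Cardamonin it fell to 7.05 ± 1.19 TPM, 12.3-fold lower (log2 -3.44 ± 0.10, limma adjusted p = 6.42e-20), and with AEG 3482 to 11.5 ± 0.845 TPM, 7.52-fold lower. The fall with Podofilox, to 46.0 ± 4.18 TPM, was 1.88-fold, smaller than that with AEG 3482 in the direct contrast of those compounds (log2 -1.91 ± 0.12, AEG 3482 minus Podofilox, limma adjusted p = 4.47e-13).

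Gbp3 and Gbp7 are further GBP of the same cluster. Gbp3 had a DMSO range of 19.8 to 37.6 TPM and reached 114, 99.99 and 90.8 TPM with Antimycin A. Its mean was 32.3 ± 6.72 TPM in DMSO and 102 ± 11.6 TPM with Antimycin A, 3.14-fold higher (log2 1.65 ± 0.13, limma adjusted p = 4.25e-10). It was 14.9-fold lower with Cardamonin, at 2.24, 2.21 and 2.07 TPM. Gbp7 ran from 5.24 to 11.5 TPM in DMSO, 21.5, 17.7 and 18.7 with Antimycin A and 0.915, 0.874 and 0.981 with Cardamonin, 9.67-fold lower in the mean. With Dihydrorotenone Gbp7 stood at 12.2, 10.8 and 10.3 TPM, overlapping DMSO (log2 0.32 ± 0.14, limma adjusted p = 0.133). The ratio of Gbp3 to Gbp2 TPM was 0.317 to 0.402 in DMSO, 0.611 to 0.694 with Antimycin A and 0.238 to 0.29 with Podofilox. With AEG 3482 (0.346 to 0.422) and Cardamonin (0.27 to 0.351) this ratio overlapped DMSO.

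Irgm1, which encodes the regulatory IRG of lysosomes and other endomembranes, was the most abundant IRG. Its DMSO libraries ran from 42.4 to 60.8 TPM (median 59.3). It stood at 192, 183 and 159 TPM with Antimycin A, 152, 162 and 151 with Diphenyleneiodonium Cl, 116, 119 and 134 with BerberineA, 97.7, 103 and 98.7 with Clofilium tosylate and 102, 90.6 and 79.8 with Dihydrorotenone. All of these were above the DMSO range. Below the DMSO range were 23.9, 27.6 and 32.3 TPM with Podofilox, 31.3, 29.0 and 26.5 with AEG 3482 and 23.6, 19.0 and 26.2 with Cardamonin. The mean rose 3.18-fold with Antimycin A, from 55.8 ± 7.20 TPM to 178 ± 17.1 TPM (log2 1.66 ± 0.11, limma adjusted p = 9.07e-12). Irgm1 fell with Podofilox (log2 -0.97 ± 0.11) and with AEG 3482 (log2 -0.92 ± 0.11), and the direct contrast of AEG 3482 minus Podofilox was 0.06 ± 0.12 (limma adjusted p = 0.709). With Cardamonin Irgm1 was 2.43-fold lower, against 12.3-fold for Gbp2.

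Igtp, also named Irgm3, encodes the regulatory IRG of the endoplasmic reticulum and lipid droplets. It ran from 11.6 to 18.4 TPM in DMSO (median 16.3), 44.1, 42.3 and 40.6 with Antimycin A, 36.8, 37.9 and 36.2 with Diphenyleneiodonium Cl, 25.9, 30.4 and 30.6 with BerberineA, 24.6, 26.9 and 26.0 with Clofilium tosylate and 23.3, 21.3 and 20.95 with Dihydrorotenone. Every one of these libraries was above the DMSO range. Among the 3 compounds that lowered most of the genes, Igtp stood at 5.14, 4.01 and 5.78 TPM with Cardamonin, 6.69, 6.39 and 8.38 with Podofilox and 14.8, 14.2 and 12.1 with AEG 3482. The first 2 groups lay below DMSO and AEG 3482 lay within its range. Igtp was 2.65-fold higher with Antimycin A (log2 1.37 ± 0.11, limma adjusted p = 1.79e-10) and 3.20-fold lower with Cardamonin (log2 -1.50 ± 0.11, limma adjusted p = 2.14e-12). With AEG 3482 the log2 difference from DMSO was -0.19 ± 0.11 (limma adjusted p = 0.108). It passed after median-ratio scaling (log2 -0.29), after quantile normalization (-0.28), without the 20 most abundant genes (-0.26) and without DMSO replicate 6 (-0.28). Igtp was the gene among the 9 that passed as higher with AEG 3482 than with Podofilox: the difference was 0.86 ± 0.12 on the log2 scale (limma adjusted p = 1.31e-06), whereas Gbp2, Gbp3, Iigp1 and Tgtp2 were lower with AEG 3482. The means of Irgm1 and Irgm2 were also higher with AEG 3482 than with Podofilox, without passing.

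Irgm2, the regulatory IRG of the Golgi and of the vacuole around parasites, had a DMSO range of 12.0 to 23.2 TPM. Its rises were the smallest of the 9 genes with Antimycin A (33.7, 35.3 and 30.5 TPM, log2 0.79 ± 0.13) and with BerberineA (log2 0.53 ± 0.13). With Dihydrorotenone it stood at 23.7, 23.2 and 21.9 TPM, overlapping DMSO, and did not pass (log2 0.28 ± 0.13, limma adjusted p = 0.146). With Clofilium tosylate it passed (log2 0.42 ± 0.13, limma adjusted p = 0.0168) although 1 DMSO library reached the lowest treated library. That call was lost without Clofilium tosylate replicate 2 (log2 0.39, limma adjusted p = 0.0735) or 3 (0.38, limma adjusted p = 0.0779), with the replicate block (0.27, limma adjusted p = 0.0717) and with only the compared groups in the fit (limma adjusted p = 0.107). The Gbp2 call with Clofilium tosylate was lost without its replicate 1 (log2 0.34, limma adjusted p = 0.0525) or 2 (0.33, limma adjusted p = 0.0611). That Gbp2 call was also lost with the replicate block (0.25, limma adjusted p = 0.0564) and with only the compared groups (limma adjusted p = 0.0689). Irgm2 fell with AEG 3482 to 9.33, 9.56 and 9.46 TPM, 2.02-fold lower in the mean, and with Cardamonin to 6.10, 4.26 and 5.18, 3.68-fold lower. Igtp and Irgm2 overlap on the same strand and share sequence, so the split between these genes is uncertain, and their separate behaviour with AEG 3482 is given as the authors' quantification reports it.

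Iigp1 (ENSMUSG00000054072, chr18:60376027-60392634, plus strand), also named Irga6, encodes the effector IRG best known for loading onto the Toxoplasma vacuole, and its falls on the log2(TPM + 1) scale were the largest of the 9 genes with Cardamonin, AEG 3482 and Podofilox. Its DMSO libraries ran from 23.0 to 37.4 TPM (median 34.7). It stood at 1.74, 0.904 and 0.971 TPM with Cardamonin, 4.31, 3.18 and 2.45 with AEG 3482 and 5.10, 5.41 and 6.55 with Podofilox. Each of these libraries was below every DMSO library, and the highest of the 9 was 6.55 TPM. The mean fell from 32.6 ± 5.51 TPM (SD, n = 6) to 1.21 ± 0.467 TPM (SD, n = 3) with Cardamonin, 27.0-fold lower (log2 -3.93 ± 0.13, limma adjusted p = 6.92e-19). The fall was 9.84-fold with AEG 3482 (log2 -2.97 ± 0.13) and 5.73-fold with Podofilox (log2 -2.32 ± 0.13). Cardamonin and AEG 3482 differed directly by -0.96 ± 0.15 (limma adjusted p = 7.04e-06). The other groups were high: 71.3, 75.0 and 67.6 TPM with Diphenyleneiodonium Cl, 74.0, 69.5 and 64.1 with Antimycin A, 56.9, 59.0 and 60.9 with BerberineA, 48.0, 45.4 and 46.2 with Clofilium tosylate and 48.5, 40.8 and 40.7 with Dihydrorotenone. All of these were above the DMSO range. The highest mean was 2.19-fold that of DMSO, and the Dihydrorotenone call (log2 0.41 ± 0.13, limma adjusted p = 0.0366) was lost in 10 of the alternatives tried, among them leaving out any 1 of the 3 Dihydrorotenone libraries.

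Tgtp2, an effector IRG also named Irgb6 together with its copy Tgtp1, had the widest DMSO spread relative to its mean, from 4.24 to 14.1 TPM (median 8.61). It stood at 43.4, 40.2 and 39.4 TPM with Antimycin A, 36.1, 37.1 and 34.0 with Diphenyleneiodonium Cl, 28.8, 28.02 and 32.5 with BerberineA, 19.5, 17.4 and 15.1 with Clofilium tosylate and 22.7, 14.8 and 13.2 with Dihydrorotenone. The first 4 groups were above all DMSO libraries, and the lowest Dihydrorotenone library was under the highest DMSO library. The low groups were 1.49, 0.555 and 1.45 TPM with Podofilox, 0.665, 0.0923 and 0.149 with Cardamonin and 0.282, 0.201 and 0.112 with AEG 3482. All 9 of these libraries were below 1.5 TPM and below DMSO. Its rise with Antimycin A was 4.68-fold (log2 2.18 ± 0.22, limma adjusted p = 1.7e-08), the largest log2 rise of the 9 genes with that compound. Its fall with AEG 3482 was log2 -2.95 ± 0.22 (limma adjusted p = 1.11e-11). In mean TPM, Tgtp2 fell 29.0-fold with Cardamonin, 44.1-fold with AEG 3482 and 7.50-fold with Podofilox. Each of these was more than the fall of Iigp1 in mean TPM, with Tgtp2 near the floor in the treated libraries.

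Tgtp1 was near the floor of the table in most groups. Its DMSO libraries ran from 0.36 to 0.961 TPM, and its 3 AEG 3482 libraries were listed at 0, 0.0417 and 0 TPM. It stood at 5.79, 5.18 and 8.15 TPM with Diphenyleneiodonium Cl and 5.39, 3.05 and 2.59 with Antimycin A, all above DMSO. Its rise with Diphenyleneiodonium Cl (log2 2.21 ± 0.20, limma adjusted p = 7.29e-09) was the largest log2 rise of the 9 genes with that compound. With Clofilium tosylate (0.877, 1.83 and 0.814 TPM, limma adjusted p = 0.116) and Podofilox (0.229, 1.02 and 0 TPM, limma adjusted p = 0.41) it overlapped DMSO and did not pass. With the TPM of both copies summed to 1 feature, both comparisons passed, with a log2 change of 0.98 with Clofilium tosylate (limma adjusted p = 0.000825) and -1.93 with Podofilox (limma adjusted p = 2.15e-08).

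**Figure D2:**
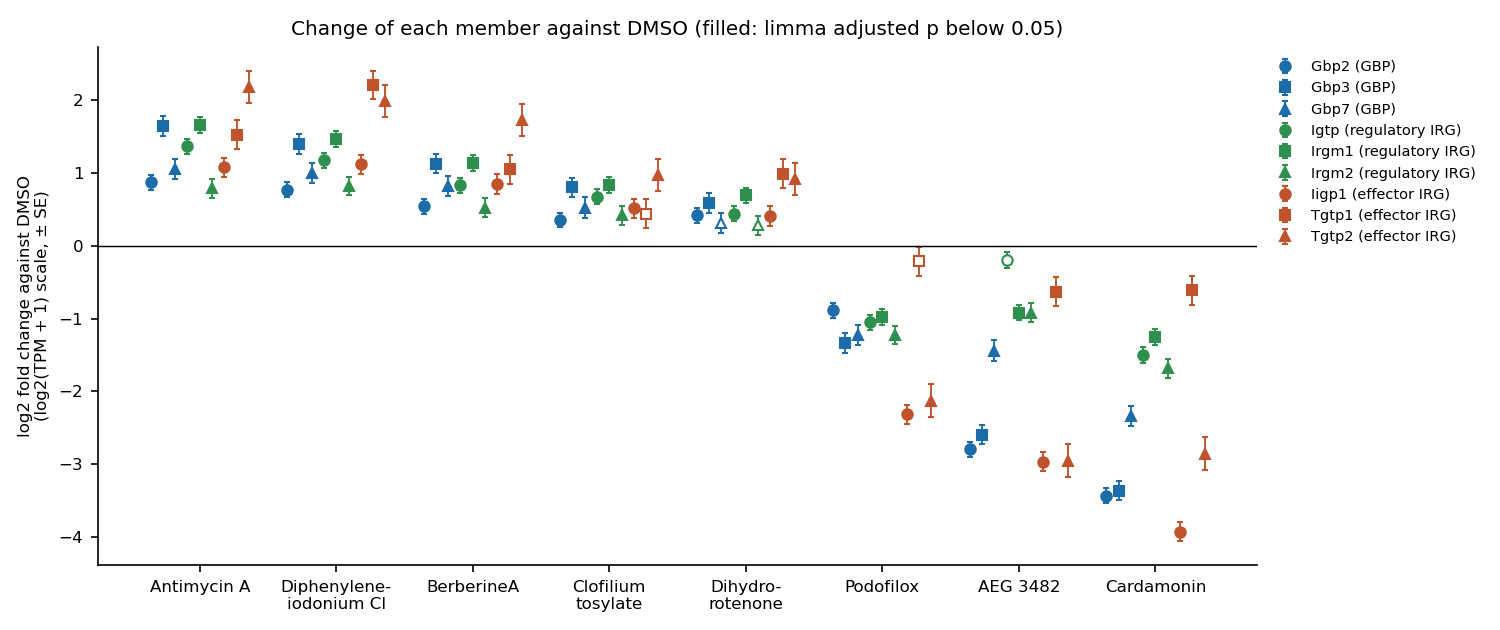
Log2 fold change against DMSO on the log2(TPM + 1) scale (vertical axis) of the 9 genes with each compound (horizontal axis); points are limma estimates, bars are ± SE, colours mark GBP, regulatory IRG and effector IRG, and filled points passed the adjusted p threshold of 0.05. Every point lies above 0 for 5 compounds and below 0 for 3. With Cardamonin the points run from -3.93 (Iigp1) to -0.61 (Tgtp1). Tgtp1, with a mean of 0.579 TPM in DMSO, is near the floor, where this scale understates falls. Without Tgtp1 the range is -3.93 to -1.25 (Irgm1) with Cardamonin and -2.97 (Iigp1) to -0.19 (Igtp) with AEG 3482.

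The same 5 compounds stood above DMSO and the same 3 below it for all 9 genes by mean TPM. Antimycin A had the highest mean for 6 genes and Diphenyleneiodonium Cl for 3 (Irgm2, Iigp1 and Tgtp1). Cardamonin had the lowest mean for 7 genes and AEG 3482 for the 2 Tgtp genes. Among the compounds above DMSO, none of 36 pairs of neighbours in this order passed the direct contrast of limma. The share of all tested genes called between these compounds was also low, from 0.623% to 9.04%. DMSO and the compound next above it differed for 6 of 9 genes, against 23.4% (Clofilium tosylate) or 14.4% (Dihydrorotenone) of all tested genes. DMSO and the compound next below it differed for 7 of 9, against 46.2% (Podofilox) or 68.1% (AEG 3482). Neighbours below DMSO differed for 11 of 18 pairs, a share near the 55.3% to 60.3% of all tested genes called between the 3 compounds below DMSO. The neighbours were set by the same means that were tested.

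All 28 direct contrasts between compounds gave 252 tests of the 9 genes, of which 187 passed, against 38.7% of all gene tests in these contrasts. Each of the 5 compounds that raised the genes differed from each of the 3 that lowered them for 9 of 9 genes. Of all tested genes, 64.2% differed between Cardamonin and Antimycin A, 67.1% between it and Dihydrorotenone, 65.4% and Diphenyleneiodonium Cl, 65.5% and BerberineA, and 65.1% and Clofilium tosylate. For AEG 3482 the shares in the same order were 64.4%, 65.4%, 64.3%, 63.9% and 64.4%, and for Podofilox 41.4%, 45.2%, 42.7%, 42.6% and 39.1%. Antimycin A and Diphenyleneiodonium Cl differed for 0 of 9 genes (6.04% of all tested genes), with log2 differences between -0.68 (Tgtp1) and 0.24 (Gbp3), SE 0.12 to 0.26; a p that misses the threshold does not show that the levels were equal. Antimycin A exceeded Dihydrorotenone for 8 of 9 genes (against 15.5%), all but Tgtp1. The difference was 0.92 ± 0.12 for Igtp (limma adjusted p = 6.9e-06) and 0.96 ± 0.12 for Irgm1 (limma adjusted p = 4.87e-06). Diphenyleneiodonium Cl exceeded Dihydrorotenone for 8 of 9 (against 3.68%), all but Gbp2, and Clofilium tosylate for 6 of 9 (against 3.15%). Antimycin A exceeded Clofilium tosylate for 7 of 9 (against 5.21%) and BerberineA for 3 of 9 (against 9.04%), the 3 being Gbp3, Igtp and Irgm1. Diphenyleneiodonium Cl exceeded BerberineA for Tgtp1 alone among the 9 (against 0.623%). No gene of the 9 passed between Dihydrorotenone and BerberineA (1.51% of all tested genes), Dihydrorotenone and Clofilium tosylate (2.46%) or BerberineA and Clofilium tosylate (2.81%).

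Among the compounds that lowered the genes, Cardamonin was below AEG 3482 for 7 of 9 genes (against 55.3% called in either direction), all but the Tgtp pair. The largest of these differences was Igtp, at -1.31 ± 0.12 (limma adjusted p = 1.53e-09). Cardamonin was below Podofilox for 7 of 9 (against 57.8%), all but Irgm1 and Tgtp1, with Gbp2 at -2.55 ± 0.12. AEG 3482 and Podofilox differed for 5 of 9 (against 60.3%), 4 lower and Igtp higher with AEG 3482.

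The make-up of the group, as the share of the TPM summed over the 9 genes, changed with the compounds that lowered them. The regulatory IRG genes held 33.9% to 36.4% of the sum in the DMSO libraries, 71.2% to 78.5% with Cardamonin and 69.7% to 71.2% with AEG 3482. The effector IRG genes held 14.8% to 17.8% in DMSO, 2.54% to 4.95% with Cardamonin, 3.79% to 5.77% with AEG 3482 and 6.42% to 6.84% with Podofilox. The regulatory share was thus higher, and the effector share lower, than in any DMSO library with Cardamonin and AEG 3482. By a smaller margin the regulatory share was also above every DMSO library with Antimycin A (38.7% to 39.9%) and Diphenyleneiodonium Cl (37.3% to 38.9%). The same held with Clofilium tosylate (36.9% to 39.5%) and Podofilox (37.15% to 38.94%), while Dihydrorotenone and BerberineA overlapped DMSO. With Podofilox the GBP share was above DMSO, at 54.2% to 56.4% against 47.8% to 50.3% in DMSO, while with Cardamonin it was 18.9% to 26.2%. With the compounds that raised the genes the shares moved less: the effector share was 17.3% to 17.9% with Antimycin A and 18.8% to 19.6% with Diphenyleneiodonium Cl, and the GBP share was 42.8% to 43.5% with Antimycin A, below every DMSO library.

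Ratios within a library show the same, free of the scaling of TPM. Iigp1 relative to Irgm1 was 0.543 to 0.625 in DMSO, 0.196 to 0.213 with Podofilox, 0.0924 to 0.138 with AEG 3482 and 0.037 to 0.0739 with Cardamonin. Gbp2 relative to Irgm1 was 1.45 to 1.61 in DMSO, 0.856 to 0.936 with Antimycin A and 0.373 to 0.421 with AEG 3482. Igtp relative to Irgm1 was 0.264 to 0.307 in DMSO, 0.457 to 0.49 with AEG 3482 and 0.211 to 0.22 with Cardamonin, so AEG 3482 alone among the 9 groups stood above DMSO in this ratio. These shares and ratios are descriptions without a test, and a ratio shows unequal change and not which gene moved.

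**Figure D3:**
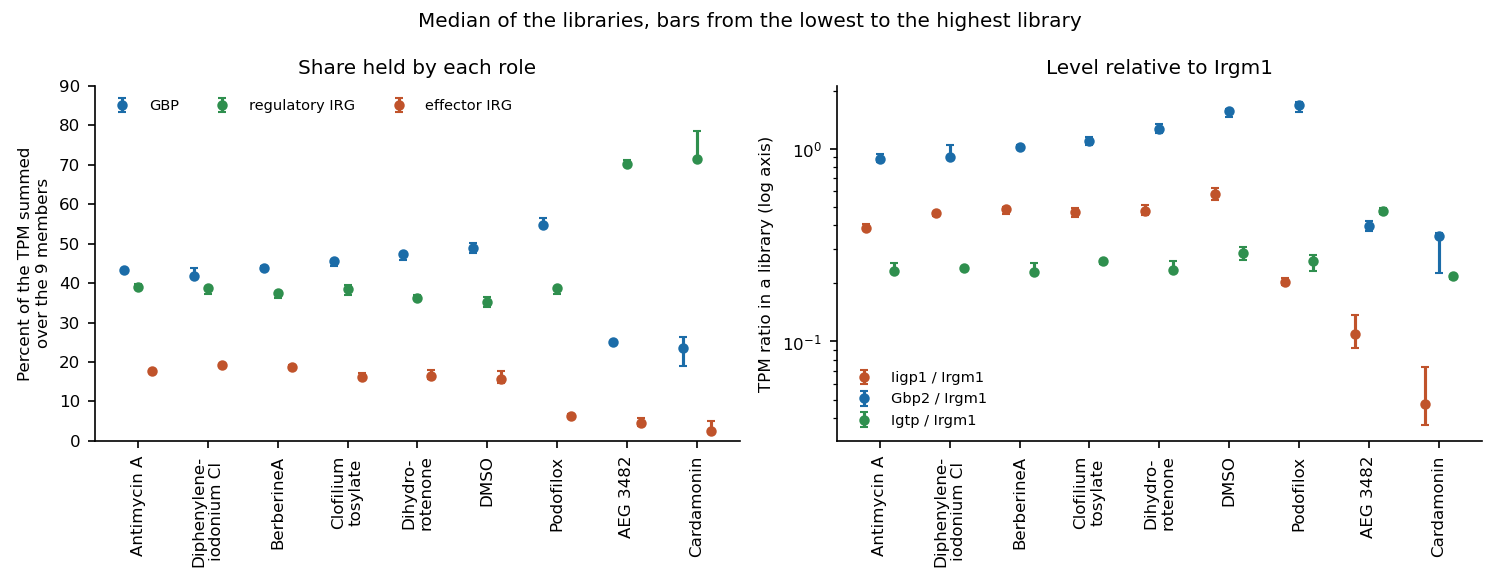
Left, the percent of the TPM summed over the 9 genes that GBP, regulatory IRG and effector IRG genes held in each group (linear axis); right, the TPM of Iigp1, Gbp2 and Igtp relative to Irgm1 (log axis). Points are medians of the libraries and bars run from the lowest to the highest library; the regulatory share stood at 35.2% in DMSO, 70.2% with AEG 3482 and 71.6% with Cardamonin.

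Over the 30 libraries, the log2(TPM + 1) levels of the 9 genes ran closely together, with a Pearson correlation from 0.765 (Gbp2 with Tgtp1) to 0.988 (Gbp3 with Gbp7) over their 36 pairs. Apart from pairs with Tgtp1, the lowest was Gbp2 with Igtp, at 0.817. The 6 genes outside the 9 whose pattern was most like the mean of the 9 were Herc6 (Pearson 0.993 over 30 libraries), Ifi44 (0.993), Ifi47 (0.992), Parp14 (0.992), Phf11d (0.990) and Ddx60 (0.990). Ifi47 is itself an IRG gene. Phf11d, for example, had a mean of 37.0 TPM in DMSO, 159 with Antimycin A and 6.66 with Cardamonin, and Ddx60 had 7.08, 15.0 and 0.672. These correlations share libraries and the large differences between groups and are given as descriptions.

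Of 7 other GBP genes listed, 5 were in the table and 4 were tested, and with Cardamonin, AEG 3482 and Podofilox 4 of 4 were lower. With Antimycin A, Diphenyleneiodonium Cl and BerberineA 3 of 4 were higher, with Dihydrorotenone 2 and with Clofilium tosylate 1. Their median log2 change was 0.96 with Antimycin A and -1.91 with Cardamonin, beside 0.03 over all tested genes in each. Gbp2b, the closest copy of Gbp2, stood at 62.5 ± 11.3 TPM in DMSO, 122 ± 8.19 TPM with Antimycin A (log2 0.97) and 3.12 ± 0.599 TPM with Cardamonin (log2 -3.93). Gbp11 stood at 3.51 ± 0.897 TPM in DMSO, 9.99 ± 1.17 TPM with Antimycin A and 0.13 ± 0.00957 TPM with AEG 3482. Of 11 other IRG genes 9 were tested. With Diphenyleneiodonium Cl 7 were higher, and with Antimycin A 6 were higher and 1 lower. With each of Cardamonin, AEG 3482 and Podofilox 6 were lower and 1 higher. Their median log2 change was 0.45 with Antimycin A and -0.50 with Cardamonin. Beside the counts of both lists, 37.3% of all tested genes passed with Antimycin A, 25.7% with Diphenyleneiodonium Cl and 21.7% with BerberineA. The shares were 23.4% with Clofilium tosylate, 14.4% with Dihydrorotenone, 70.3% with Cardamonin, 68.1% with AEG 3482 and 46.2% with Podofilox. Gm4951, an IRG gene related to Iigp1, went from 8.08 ± 1.82 TPM to 18.8 ± 0.983 TPM with Diphenyleneiodonium Cl and 0.611 ± 0.168 TPM with Cardamonin. Irgq, a distant relative of the other IRG genes, rose with the compounds that lowered most of the others, from 12.6 ± 0.575 TPM to 17.8 ± 0.841 TPM with Podofilox (log2 0.46, limma adjusted p = 1.26e-06).

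The interferons themselves were not detected at levels that could be tested. None of 10 ligand genes reached 1 TPM in any library: Ifnb1 and Ifng were at or below 0.186 TPM, Ifne at or below 0.689 TPM, and Ifna1, Ifna4, Ifna5, Ifnl2 and Ifnl3 were listed at 0 throughout. Of 6 receptor genes 5 were tested: 1 was higher and 2 lower with Antimycin A, 1 and 3 with Cardamonin and with AEG 3482, and 1 and 4 with Podofilox. The list's median log2 change was -0.05 with Antimycin A and -0.76 with Cardamonin. Among all tested genes, 37.3% passed with Antimycin A, 70.3% with Cardamonin, 68.1% with AEG 3482 and 46.2% with Podofilox. Ifngr1, the ligand-binding chain for interferon gamma, was lower with all 8 compounds, from 76.9 ± 6.46 TPM in DMSO to 42.6 ± 1.59 TPM with Antimycin A (log2 -0.83, limma adjusted p = 4.31e-12) and 31.6 ± 2.31 TPM with Cardamonin (log2 -1.26). The partner chain Ifngr2 was at 54.5 ± 3.52 TPM in DMSO, 63.5 ± 1.09 TPM with Antimycin A (log2 0.22) and 46.6 ± 2.12 TPM with Podofilox (log2 -0.22). Ifnar2, the high-affinity chain for type I interferons, fell with Cardamonin (log2 -0.76), Podofilox (-0.52) and AEG 3482 (-0.39). Ifnar1 differed little, with log2 differences from -0.13 to 0.17, and its small rise with AEG 3482 (0.11) turned to -0.07 after quantile normalization. That rise was 0.008 after median-ratio scaling (limma adjusted p = 0.869), and its call was lost in further alternatives.

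Among the kinases, Jak2, which serves the interferon gamma receptor, fell with AEG 3482 from 56.4 ± 5.06 TPM to 17.0 ± 1.08 TPM (log2 -1.67, limma adjusted p = 2.34e-16), with Cardamonin to 15.9 ± 2.01 TPM (log2 -1.76) and with Podofilox to 36.0 ± 2.11 TPM (log2 -0.63). It passed with none of the 5 other compounds, where log2 differences lay between -0.17 and -0.03; with Clofilium tosylate it passed as lower without DMSO replicate 6 (log2 -0.22, limma adjusted p = 0.016) and without Clofilium tosylate replicate 1 (-0.24, limma adjusted p = 0.0386). Jak1, used by both receptors, rose with AEG 3482 to 236 ± 4.87 TPM from 164 ± 9.43 TPM (log2 0.53) and with Cardamonin (log2 0.32).

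Of the 13 tested kinase and transcription factor genes, 7 were higher and 1 lower with Antimycin A, 6 and 0 with Diphenyleneiodonium Cl, 2 and 8 with Cardamonin, and 2 and 6 with AEG 3482. The list's median log2 change was 0.59 with Antimycin A and -0.51 with Cardamonin. The shares of all tested genes that passed were 37.3% with Antimycin A, 25.7% with Diphenyleneiodonium Cl, 70.3% with Cardamonin and 68.1% with AEG 3482. Irf7, a factor that amplifies type I responses, was at 61.6 ± 8.90 TPM in DMSO, 312 ± 18.2 TPM with Antimycin A (log2 2.34) and 8.29 ± 1.55 TPM with Cardamonin (log2 -2.75). Irf1, which interferon gamma induces and which drives GBP genes, did not pass as higher with any of the 5 compounds that raised the GTPase genes when all libraries were used: it was at 56.8 ± 5.57 TPM in DMSO, 49.8 ± 1.46 TPM with Antimycin A (log2 -0.18, limma adjusted p = 0.0447, lost in 10 alternatives) and 64.1 ± 1.15 TPM with Diphenyleneiodonium Cl (log2 0.18, limma adjusted p = 0.0634). With Diphenyleneiodonium Cl it passed as higher without DMSO replicate 2 (log2 0.20, limma adjusted p = 0.0486) or 5 (0.21, limma adjusted p = 0.025), and with Clofilium tosylate it passed as lower without DMSO replicate 6 (-0.19, limma adjusted p = 0.0366). It fell with Cardamonin (log2 -1.55), AEG 3482 (-0.66) and Podofilox (-0.55). With AEG 3482 Stat2 (-0.17, limma adjusted p = 0.143) and Irf9 (-0.04, limma adjusted p = 0.743) did not pass; Stat2 passed at -0.27 after median-ratio scaling and at -0.24 without DMSO replicate 6 (limma adjusted p = 0.0194), and Irf9 passed at -0.21 after quantile normalization.

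Of 10 tested inhibitors of the pathway, 3 were higher and 3 lower with Antimycin A, 1 and 7 with Cardamonin, 2 and 5 with AEG 3482 and 2 and 3 with Podofilox. Their median log2 change was -0.05 with Antimycin A and -0.50 with Cardamonin. Beside these counts, 37.3% of all tested genes passed with Antimycin A, 70.3% with Cardamonin, 68.1% with AEG 3482 and 46.2% with Podofilox. Usp18, an interferon-induced brake on the type I receptor, followed the GTPase genes: it rose with Antimycin A from 32.2 ± 3.13 TPM to 125 ± 13.2 TPM (log2 1.93) and fell with Cardamonin to 6.67 ± 2.06 TPM (log2 -2.15). Socs3, which restrains cytokine receptors that use STAT3, was lower with Antimycin A (log2 -0.85), with AEG 3482 (-1.52) and with Cardamonin (-1.62). Socs1, the main brake on the interferon gamma receptor, passed with Cardamonin alone among the 8 compounds (log2 -0.50, limma adjusted p = 0.00135).

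**Figure D4:**
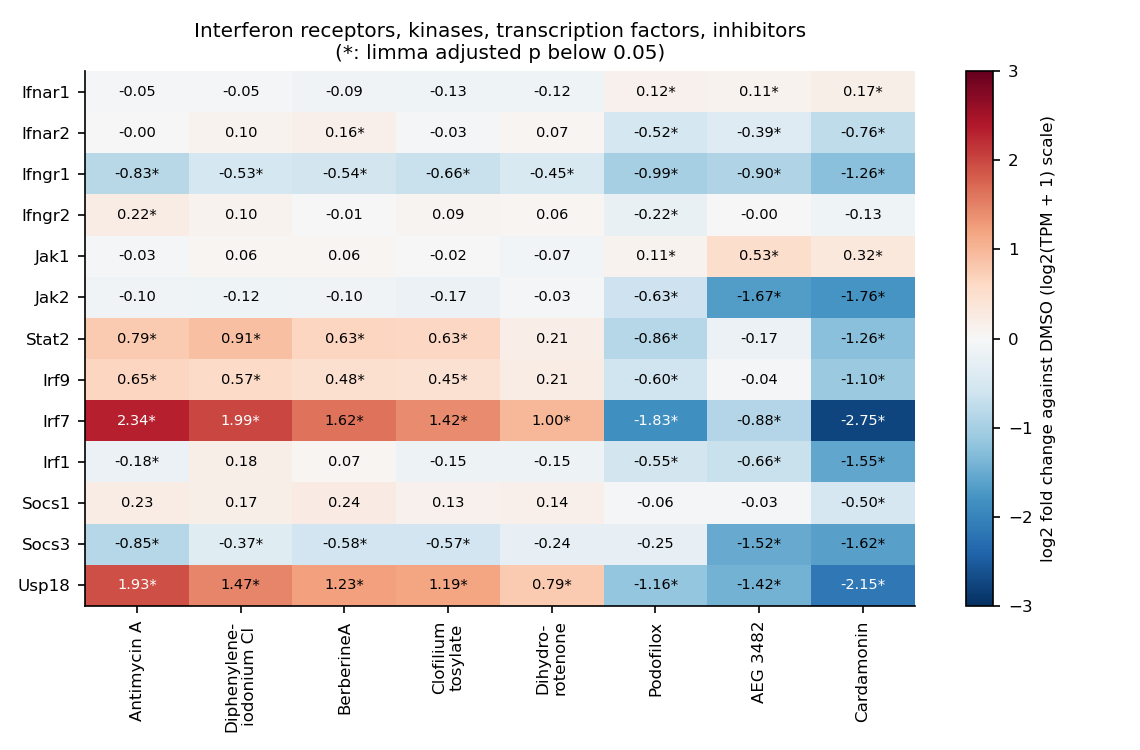
Log2 fold change against DMSO on the log2(TPM + 1) scale (colour and printed value) of interferon receptor, kinase, transcription factor and inhibitor genes (rows) with each compound (columns); asterisks mark limma adjusted p below 0.05. Irf7 and Usp18 change sign between the 5 compounds on the left and the 3 on the right, Ifngr1 is lower in all 8 columns, and Jak2 is lower in the 3 columns on the right. Some asterisks are lost in alternatives, among them those of Ifnar1 with AEG 3482 and with Podofilox after median-ratio scaling. The asterisk of Jak1 with Podofilox is lost after quantile normalization, which also turns the sign of Ifnar1 with AEG 3482.

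All 16 listed type I targets that are not GTPases were higher with Antimycin A, Diphenyleneiodonium Cl, BerberineA and Clofilium tosylate, 12 were higher with Dihydrorotenone, all 16 were lower with Cardamonin and AEG 3482, and 15 were lower with Podofilox. Their median log2 change was 1.61 with Antimycin A and -2.18 with Cardamonin, beside 0.03 and 0.03 over all tested genes. Of all tested genes, 37.3% passed with Antimycin A, 25.7% with Diphenyleneiodonium Cl, 21.7% with BerberineA and 23.4% with Clofilium tosylate. The shares were 14.4% with Dihydrorotenone, 70.3% with Cardamonin, 68.1% with AEG 3482 and 46.2% with Podofilox. Ifit3, which binds viral RNA with its partners, went from 120.5 ± 26.6 TPM to 719 ± 90.5 TPM with Antimycin A (log2 2.60) and 7.78 ± 2.38 TPM with Cardamonin (log2 -3.79). With AEG 3482 Ifit3 fell to 31.5 ± 5.39 TPM (log2 -1.88).

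Of 15 tested interferon gamma targets that are not GTPases, 12 were higher and 1 lower with Antimycin A, 14 were lower and 0 higher with Cardamonin, and 12 were lower and 1 higher with each of AEG 3482 and Podofilox. Their median log2 change was 1.01 with Antimycin A and -1.76 with Cardamonin. Among all tested genes, 37.3% passed with Antimycin A, 70.3% with Cardamonin, 68.1% with AEG 3482 and 46.2% with Podofilox. Cxcl9, a chemokine for T cells, rose from 8.32 ± 2.42 TPM to 44.2 ± 4.66 TPM with Antimycin A (log2 2.32) and fell to 0.942 ± 0.249 TPM with Podofilox (log2 -2.22). Psmb8, an immunoproteasome subunit, fell from 69.2 ± 7.81 TPM to 6.02 ± 1.26 TPM with Cardamonin (log2 -3.33). Nos2, the inducible nitric oxide synthase, went against the GTPase genes with Podofilox, rising from 62.7 ± 11.5 TPM to 276 ± 43.1 TPM (log2 2.13, limma adjusted p = 1.66e-08), while with AEG 3482 it fell to 0.387 ± 0.288 TPM (log2 -5.52).

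The dynamin superfamily list of 6 genes, which includes the interferon-induced Mx genes, had 3 higher and 1 lower with each of the 5 compounds that raised the GTPase genes, 1 higher and 3 lower with Cardamonin, 1 and 1 with AEG 3482 and 0 and 2 with Podofilox. Their median log2 change was 0.79 with Antimycin A and -0.38 with Cardamonin. Over all tested genes, the shares that passed ran from 14.4% with Dihydrorotenone to 37.3% with Antimycin A among the 5 compounds. They were 70.3% with Cardamonin, 68.1% with AEG 3482 and 46.2% with Podofilox. Mx2, an antiviral GTPase, rose with Antimycin A (log2 1.77, 13.6 ± 2.47 TPM to 48.2 ± 5.55 TPM) and fell with Podofilox (-1.10). With Cardamonin (log2 -0.24, limma adjusted p = 0.167) and AEG 3482 (log2 -0.22, limma adjusted p = 0.219) Mx2 did not pass, although with Cardamonin it passed without DMSO replicate 6 (log2 -0.34, limma adjusted p = 0.0355) and with the replicate block (-0.39, limma adjusted p = 0.0453).

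Genes that work beside the GTPases were also listed. Of 10 genes of the ubiquitin-like conjugation system that places IRG and GBP proteins on vacuoles, 8 were higher with Cardamonin (beside 5084 of the 13644 tested genes) and 8 with AEG 3482 (beside 5634), 1 was lower with each, and 6 were higher with Antimycin A. Their median log2 change was 0.10 with Antimycin A and 0.25 with Cardamonin. Gabarapl1, an autophagy protein of the vacuole membrane, was at 248 ± 6.57 TPM in DMSO, 437 ± 30.8 TPM with Cardamonin (log2 0.81) and 349 ± 6.77 TPM with AEG 3482 (log2 0.49). Of 6 tested inflammasome genes, 4 were lower with AEG 3482 and 3 with Cardamonin, and 3 were higher and 1 lower with Antimycin A. Their median log2 change was 0.26 with Antimycin A and -0.22 with Cardamonin. Over all tested genes the shares that passed were 68.1% with AEG 3482, 70.3% with Cardamonin and 37.3% with Antimycin A. Casp4, which encodes the mouse caspase-11 that GBP proteins bring to bacterial lipopolysaccharide, fell with AEG 3482 from 179.9 ± 7.92 TPM to 43.1 ± 3.10 TPM (log2 -2.04). Gsdmd, the pore-forming target of that caspase, fell with Cardamonin from 51.3 ± 5.28 TPM to 14.8 ± 0.854 TPM (log2 -1.72).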

How the data were processed

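The deposited table holds gene-level abundance in TPM, which the authors made with kallisto 0.43.1 and the mm10 build, per the submitters' processing notes, and tximport, per the design text of the series; TPM carries no depth, so no counting interval is given. All 30 libraries were used, with groups taken from the labels. Gene symbols came from GENCODE M21 by Ensembl ID: 29426 IDs matched and 435 did not. Genes that reached 1 TPM in 3 or more libraries were tested as log2(TPM + 1), in a single limma fit (version 3.58.1, R 4.3.3) that held a mean for each group and moderated the spread by empirical Bayes with an intensity trend. P-values were adjusted by Benjamini-Hochberg over the 13644 tested genes within each of 8 contrasts with DMSO and 28 contrasts between compounds, with a threshold of 0.05. The fit was tested on simulated data. Named genes are the members, genes of fixed pathway lists, and the 6 other genes with the highest Pearson correlation to the members' mean. The members and lists were chosen with earlier results of these data known. Alternatives were other pseudocounts, filters, scalings and fits, the replicate number as a block, both Tgtp genes summed, and each library left out. The series text gives 5 DMSO samples and 6 were analysed. Promoter windows came from RefSeq. Sequence sharing was counted over 31-base words of the GENCODE M21 transcripts.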

Additional observations from a re-analysis of the deposited data

Results flagged for a closer look

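Only the DMSO group had enough libraries for a check of single libraries that stand apart, and 46 genes named here were examined in it, of which chance would give about 1 in 20. In 2 genes 1 library stood apart, with a gap to its nearest neighbour that was a large share of the range of the group. For Socs3 the lowest library was DMSO replicate 1, with a gap of 0.829 of the range. For Atg7, an enzyme of autophagy, the highest library was DMSO replicate 4, with a gap of 0.631 of the range. None of the 9 GTPase genes passed this check, and DMSO replicate 6 was the lowest library for all 9.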

How the results depend on the processing

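Of 72 results of a GTPase gene with a compound, 59 kept their direction and their side of the threshold in every alternative run, and 0 of 1432 single alternatives reversed. With only the compared groups in the fit, 2 genes passed with Dihydrorotenone (7 with all groups) and 5 with Clofilium tosylate (8 with all groups). Leaving out 1 library at a time gave 4 to 7 genes with Dihydrorotenone, 4 being the count without its replicate 1; the cause was not tested. Leaving out 1 replicate number at a time gave 161 to 163 of the 252 direct tests, against 187. With genes of a mean of at least 5 TPM only, fewer genes were tested, and the calls over the 8 compounds were 7 for the other GBP genes (24 in the main setting), 20 for the other IRG genes (45) and 15 for the dynamin superfamily (28). Ifnar1 with AEG 3482 reversed to -0.066 after quantile normalization. Whether replicate numbers pair the libraries was not settled. Only 4 of 108 same-numbered pairs had a correlation of their deviations over 0.1. However, 13 of 27 libraries correlated best with their own number, a count for which no chance level was set. With the replicate block, 9 genes passed with Antimycin A, 6 with Dihydrorotenone, 9 with Diphenyleneiodonium Cl, 9 with Cardamonin, 9 with BerberineA, 6 with Clofilium tosylate, 8 with AEG 3482 and 8 with Podofilox, and 202 direct tests passed. Depth is unknown, and Tgtp1, below 1 TPM in 16 of 30 libraries, is the least certain of the genes.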
